A study of Mus musculus with 3 samples.

Results

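The EGF receptor family was followed in cultured mouse hepatic stellate cells (HSCs), which keep the liver's vitamin A and become collagen-producing myofibroblasts in fibrosis. The genes were chosen by name, as the receptors *Egfr*, *Erbb2* and *Erbb3*, the ligands *Hbegf*, *Areg*, *Ereg*, *Tgfa*, *Btc* and *Nrg1*, and the receptor inhibitor *Errfi1*. Of these 10 genes, 9 had a value in both deposited tables, which share 30595 gene symbols, and all 9 had a mean level of at least 1 TPM. *Areg* was not analysed here. HSCs were isolated by density gradient from wild-type female C57BL/6 mice more than 24 weeks old and were starved in 0.2% FBS for 24 h. They were then stimulated for 24 h with recombinant human FGF18 at 100 ng/mL, stimulated for 24 h with TGFβ1 (TGFb1 in the labels) at 1 ng/mL, or left untreated. No group carried a transgene or a mutant allele, cells of 2 mice typically made up an isolation, and 80 to 90% of the cells were positive for the UV signal of vitamin A. The labels list 1 record per condition, and each deposited level is a mean over 3 libraries.

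The family works as a set of partners. A ligand held in the cell membrane is cut free by a protease, binds a receptor and brings receptors together in pairs, and the paired kinases switch on RAS-ERK and PI3K signaling. EGFR binds EGF, TGFα, amphiregulin, HB-EGF, betacellulin, epiregulin and epigen. ErbB3 and ErbB4 bind neuregulins, whereas ErbB2 has no known ligand of its own and serves as a partner, and ErbB3 signals mainly through its partners because its own kinase is weak. In the liver EGFR is best known from hepatocytes, where its ligands drive regeneration, and HSCs respond to EGF-like ligands by dividing and migrating.

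Levels are given in TPM, a share of all transcripts that takes account of gene length and of library depth, so that levels of different genes can be compared within a condition. Each log2 ratio is the log2 of (TPM + 1) in the first-named condition over (TPM + 1) in the second, which understates the ratio of low genes, and each plain fold is the ratio of the levels themselves. The spread between libraries and the depth were not computed, because only the authors' mean levels were used. No difference below was therefore tested, and none is shown to exceed the error between libraries. In place of a test, each ratio is set beside the ratios of the other genes, and a gene is counted where its log2 ratio is at least 2-fold in size. Cells of a type in smaller number and less RNA per cell cannot be told apart in bulk cultures.

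Stellate cell markers were present in all 3 conditions. Of 13 such markers, 13 were measured and 0 were under 1 TPM in any condition, and their summed level was 4498 TPM with FGF18, 5698 TPM with TGFβ1 and 9202 TPM in untreated cells. *Lrat*, the enzyme that stores retinol as ester, was at 61.6 TPM with FGF18, 43.9 TPM with TGFβ1 and 151.2 TPM in untreated cells. Markers of other cell types were also found. Those of liver endothelial cells summed to 328.4, 182.3 and 420.0 TPM in the same order, and those of macrophages to 146.2, 161.4 and 126.3 TPM. The list of vascular smooth muscle and pericytes summed to 757.6, 1626 and 2388 TPM. Most of that came from *Acta2*, at 167.0, 692.0 and 796.2 TPM, and *Tagln*, at 445.2, 837.5 and 1407.6 TPM. *Acta2* encodes αSMA, which the authors use as a marker of activated HSCs, so this sum is not specific to those cell types. Hepatocyte markers, at 24.6, 27.1 and 24.7 TPM over 12 genes, mesothelial markers, at 12.6, 17.0 and 15.0 TPM over 8 genes, and glial markers, at 8.91, 11.4 and 12.3 TPM over 6 genes, were low throughout. Markers of lymphoid and mast cells summed to 54.1, 49.8 and 65.8 TPM over 12 genes. The cholangiocyte list summed to 402.9, 311.8 and 75.7 TPM, most of it from *Spp1*, which is not specific to that cell type. None of these lists held a gene listed at 0.

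Within the family the largest ratios belonged to *Errfi1* and to ligand genes. The mean level of *Errfi1* was above that of untreated cells with both stimuli, and *Ereg*, *Hbegf* and *Nrg1* were at least 1.5-fold higher with TGFβ1 and between 1.10 and 1.19-fold the untreated level with FGF18. The 3 member receptors lay between 0.77 and 1.24-fold of it with either stimulus. At the 2-fold mark, 0 of 9 members were higher or lower in any comparison. Over all genes that averaged at least 1 TPM, 2.34% were at least 2-fold higher and 5.77% at least 2-fold lower with FGF18 than in untreated cells, and 4.26% were higher and 4.39% lower with TGFβ1. The median log2 ratio of the members was 0.14 with FGF18, where that of 20702 genes was -0.12, and 0.28 with TGFβ1, where that of 21256 genes was -0.0035. Both stimuli were set against a single untreated group, which moves both ratios of a gene together.

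**Figure D1:**
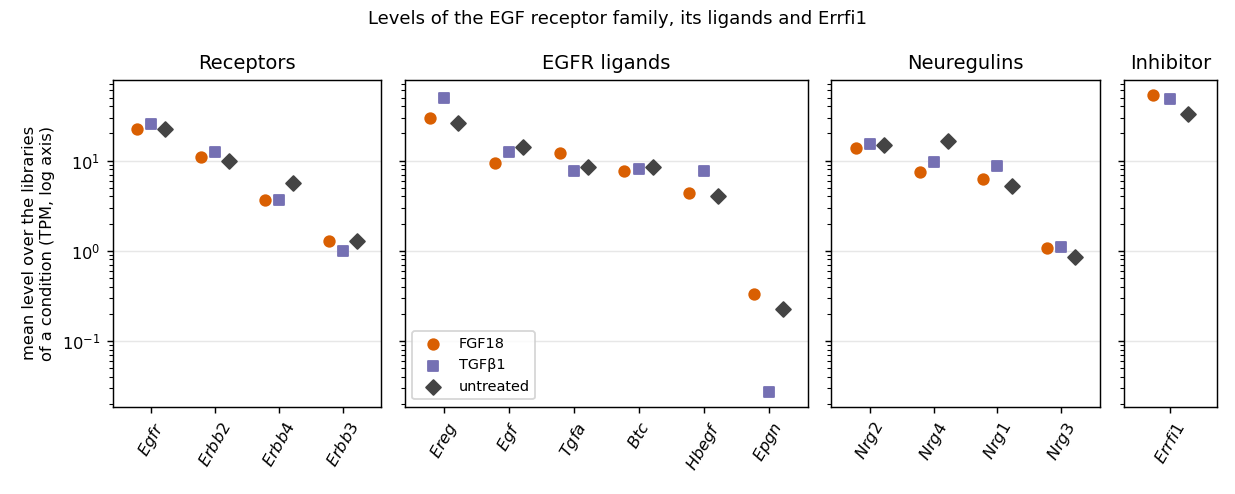
Mean levels in TPM (log axis) of the receptors, the EGFR ligands, the neuregulins and *Errfi1* in HSCs with FGF18 (circles), with TGFβ1 (squares) and untreated (diamonds). Each point is the mean of a condition and carries no error bar. *Ereg* is the highest of the 6 measured EGFR ligands in every condition, at 29.6, 49.7 and 26.1 TPM.

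*Errfi1* encodes MIG6, an adaptor that binds the kinase domain of EGFR and its relatives, blocks it and sends the receptor to degradation. Its own transcription is a known response to ERK signaling. *Errfi1* had the highest level of the 9 genes in untreated cells and with FGF18 it stood at 1.65 times that level, with TGFβ1 at 1.46 times. The mean level was 54.0 TPM with FGF18 and 48.0 TPM with TGFβ1, against 32.8 TPM in untreated cells. The log2 ratio to untreated cells was 0.70 with FGF18 and 0.54 with TGFβ1, and that of FGF18 to TGFβ1 was 0.17. *Errfi1* was the 1 member of 9 at least 1.5-fold higher with FGF18, where 6.5% of all genes were that much higher and 16.3% that much lower, and no member was lower. Genes of like level, with a mean between 0.5 and 2 times that of *Errfi1*, give a closer scale. Of 4273 such genes, 3.00% had a ratio with FGF18 at least as high, and of 4546 such genes, 6.71% had a ratio with TGFβ1 at least as high.

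The promoter windows of *Errfi1* and *Tgfa* are shown because these genes had the largest ratios with FGF18 among the members, and because they differed in their levels with TGFβ1. The windows come from RefSeq (GRCm38.p6) and run from 250 bases before to 50 bases after an annotated start. Of the 10 members, 6 matched an entry. The windows of *Errfi1*, *Tgfa*, *Egfr*, *Btc* and *Erbb2* were searched. *Errfi1* has a pair of windows on the plus strand of chromosome 4, and the downstream one is printed, at chr4:150854820-150855119. The window of *Tgfa*, also on the plus strand, is at chr6:86194972-86195271. Capitals mark matches on either strand to the letters listed after the sequences.
Errfi1: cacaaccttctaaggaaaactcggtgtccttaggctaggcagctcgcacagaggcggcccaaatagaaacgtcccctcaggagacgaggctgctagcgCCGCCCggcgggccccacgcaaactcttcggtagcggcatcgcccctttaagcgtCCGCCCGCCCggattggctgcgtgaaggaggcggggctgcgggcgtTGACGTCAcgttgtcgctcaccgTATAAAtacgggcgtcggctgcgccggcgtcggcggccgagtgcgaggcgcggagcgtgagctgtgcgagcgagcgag
Tgfa: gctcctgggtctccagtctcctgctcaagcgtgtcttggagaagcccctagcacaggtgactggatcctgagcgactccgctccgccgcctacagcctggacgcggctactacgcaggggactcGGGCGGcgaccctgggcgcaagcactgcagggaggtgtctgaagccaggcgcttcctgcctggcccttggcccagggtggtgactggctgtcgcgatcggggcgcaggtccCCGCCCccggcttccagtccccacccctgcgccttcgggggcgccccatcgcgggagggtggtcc
The letters searched were those of 7 motifs, each on both strands and with overlapping matches counted. The sequence TGACGTCA is the full cAMP response element. The GC box, which binds SP1 and its relatives, was searched as GGGCGG. The core promoter element that binds the TATA-binding protein was searched as TATAAA. The site of AP-1, the dimer of JUN and FOS proteins, was searched as TGACTCA. The site of ETS factors, many of which are switched on by ERK, was searched as CCGGAAGT. The E-box of MYC and related factors was searched as CACGTG. The palindrome of SMAD factors, which act below TGFβ receptors, was searched as GTCTAGAC. The downstream window of *Errfi1* held 1 cAMP response element, 1 TATA box and 3 GC boxes, of which 2 overlapped. These letters occur in 1.79%, 13.6% and 35.7% of 32851 windows of 300 bases. The upstream window of *Errfi1*, at chr4:150853546-150853845, held none of the 7 motifs. The window of *Tgfa* held 2 GC boxes, that of *Egfr* held 1, and those of *Btc* and *Erbb2* held none. AP-1 letters, found in 5.20% of all windows, ETS letters (3.89%), E-boxes (7.15%) and the SMAD palindrome (0.213%) were in none of these 6 windows of 5 genes. A match describes the letters and not the binding of a factor.

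*Ereg* encodes epiregulin, a ligand of EGFR and ErbB4 that is made at low level in most resting tissues and rises in inflammation and repair. It was the highest of the 6 measured EGFR ligand genes in every condition, and with TGFβ1 its mean level was 1.90-fold that of untreated cells. *Ereg* was at 29.6 TPM with FGF18 and 49.7 TPM with TGFβ1, against 26.1 TPM in untreated cells. The log2 ratio to untreated cells was 0.90 with TGFβ1 and 0.17 with FGF18. Of 4649 genes of like level, 2.13% had a ratio at least as high with TGFβ1. With FGF18 that share was 23.8% of 4947 genes. Set directly against each other, FGF18 gave a level 1.68-fold lower than TGFβ1, a log2 ratio of -0.73.

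*Hbegf* encodes heparin-binding EGF-like growth factor, which binds EGFR and ErbB4 and holds to heparan sulfate at the cell surface. It was at 4.38 TPM with FGF18 and 7.61 TPM with TGFβ1, against 4.0 TPM in untreated cells. *Hbegf* was thus 1.90-fold the untreated level with TGFβ1, close to the fold of *Ereg* at a much lower level, and its log2 ratio of 0.78 is smaller because of the added 1 TPM. Of 6489 genes of like level, 7.57% had a ratio at least as high with TGFβ1. The log2 ratio to untreated cells was 0.11 with FGF18, and that of FGF18 to TGFβ1 was -0.68.

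*Nrg1* encodes neuregulin 1, a ligand of ErbB3 and ErbB4 that is best known from nerve and heart. It was at 6.18 TPM with FGF18 and 8.67 TPM with TGFβ1, against 5.21 TPM in untreated cells. The log2 ratio to untreated cells was 0.64 with TGFβ1, which 10.1% of 6267 genes of like level reached, and 0.21 with FGF18. *Ereg*, *Hbegf* and *Nrg1* were 3 of 9 members at least 1.5-fold higher with TGFβ1, where 10.6% of all genes were that much higher and 10.7% that much lower, and 0 members were lower. In the same TGFβ1 cultures the macrophage markers summed to 161.4 TPM, against 126.3 TPM in untreated cells, with *Lyz2* at 92.9 and 54.5 TPM and *Cd68* at 43.0 and 52.1 TPM. Of the 6 that averaged at least 1 TPM, 5 had a log2 ratio above 0 and 1 below. *Csf1r*, the receptor that defines the lineage, was at 3.94 TPM with TGFβ1 and 2.27 TPM in untreated cells, and 5 of the 12 macrophage markers were under 1 TPM with TGFβ1. Liver endothelial markers summed to 182.3 TPM with TGFβ1, against 420.0 TPM in untreated cells. The part of these cells in the levels of the 3 ligand genes was not tested.

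*Tgfa* encodes TGFα, which binds EGFR alone and was the member that most set FGF18 apart from TGFβ1 in the upward direction. It was at 12.2 TPM with FGF18 and 7.70 TPM with TGFβ1, against 8.41 TPM in untreated cells. The log2 ratio to untreated cells was 0.48 with FGF18, which 7.66% of 5637 genes of like level reached, and -0.11 with TGFβ1. Directly, *Tgfa* was 1.58-fold higher with FGF18 than with TGFβ1, a log2 ratio of 0.60, which 5.14% of 5627 genes of like level reached. In that comparison *Tgfa* was the 1 member of 9 at least 1.5-fold higher, where 6.14% of all genes were, and *Ereg* and *Hbegf* were the 2 at least 1.5-fold lower, where 14.5% were. At the 2-fold mark the background was 2.49% higher and 5.19% lower. The median over 20572 genes was -0.12, so that a gene at a log2 ratio of 0 stood above the middle.

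*Btc* encodes betacellulin, another ligand of EGFR and ErbB4, and its level differed little between conditions. It was at 7.75 TPM with FGF18 and 7.97 TPM with TGFβ1, against 8.45 TPM in untreated cells, log2 ratios of -0.11 and -0.08. *Btc* and *Ereg* share a stretch of chromosome 5 that holds no other protein-coding genes than *Epgn*, *Ereg*, *Areg* and *Btc*. In the GENCODE annotation of GRCm38 the stretch runs over 375.5 kb, from 91027464 to 91402994. *Ereg* lies on the plus strand from 91074622 to 91093646 and *Btc* on the minus strand from 91357261 to 91402994. *Epgn*, 39.4 kb before *Ereg*, was at 0.33 TPM with FGF18 and 0.027 TPM with TGFβ1, against 0.23 TPM in untreated cells, too low for a ratio to be read. The 1.90-fold level of *Ereg* with TGFβ1 thus stood beside 0.94-fold for *Btc*.

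**Figure D2:**
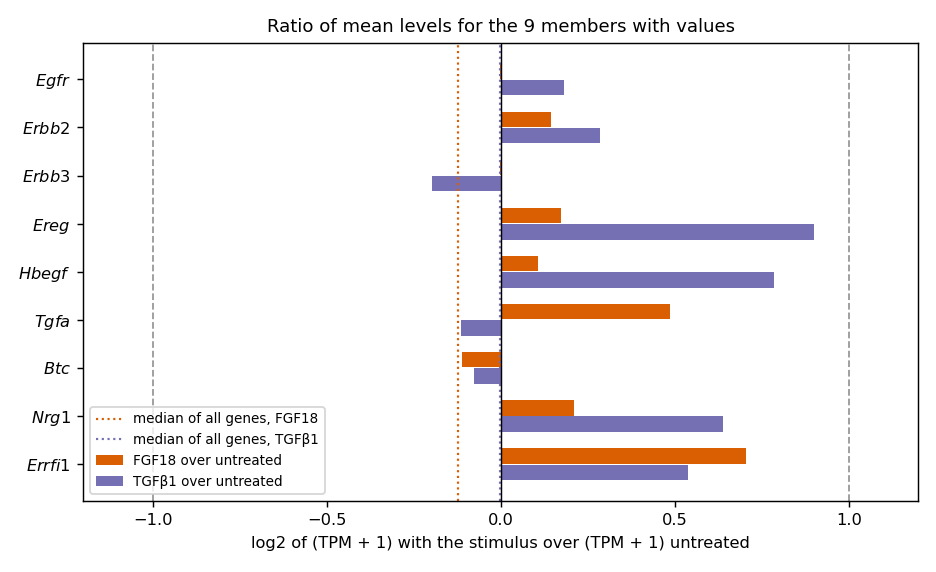
Log2 ratio of (TPM + 1) with FGF18 (orange) or TGFβ1 (purple) over untreated HSCs for the 9 members with values. Dashed grey lines mark 2-fold and dotted lines the median of all genes, -0.12 with FGF18 and -0.0035 with TGFβ1. No bar reaches a dashed line, and the longest are *Ereg* and *Hbegf* with TGFβ1, at 0.90 and 0.78, and *Errfi1* with FGF18, at 0.70.

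Among the receptors *Egfr* had the highest level. It was at 22.2 TPM with FGF18 and 25.3 TPM with TGFβ1, against 22.2 TPM in untreated cells, log2 ratios of -0.0016 and 0.18. *Erbb2*, the partner receptor, was at 11.1 TPM with FGF18 and 12.3 TPM with TGFβ1, against 9.95 TPM in untreated cells, log2 ratios of 0.14 and 0.28. *Erbb3*, the neuregulin receptor of epithelial and glial cells, was at 1.29 TPM with FGF18 and 0.99 TPM with TGFβ1, against 1.29 TPM in untreated cells. In untreated cells the level of *Egfr* stood above that of 70.0% of genes with at least 1 TPM, that of *Erbb2* above 54.1% and that of *Erbb3* above 6.09%. The order *Egfr*, *Erbb2*, *Erbb4*, *Erbb3* held in all 3 conditions. *Erbb4*, the other neuregulin receptor and no member of the set, was at 3.64 TPM with FGF18 and 3.61 TPM with TGFβ1, against 5.67 TPM in untreated cells. Its log2 ratios of -0.52 and -0.53 were reached by 28.0% and 15.9% of genes of like level. Of hepatocytes, which carry EGFR and ErbB3, the marker *Alb* was at 6.31, 6.57 and 6.03 TPM with FGF18, with TGFβ1 and in untreated cells.

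Summed over the 6 measured EGFR ligands, the level was 63.7 TPM with FGF18 and 85.4 TPM with TGFβ1, against 61.3 TPM in untreated cells. *Ereg* made up 46.5% of that sum with FGF18 and 58.1% with TGFβ1, against 42.6% in untreated cells. *Egf* itself, named with the other ligands and not a member, was at 9.45 TPM with FGF18 and 12.5 TPM with TGFβ1, against 14.1 TPM in untreated cells, and its share was 14.8% with FGF18 and 14.6% with TGFβ1, against 23.0%. The 4 neuregulins summed to 28.5 TPM with FGF18 and 34.7 TPM with TGFβ1, against 37.3 TPM in untreated cells. Within them *Nrg1* made up 21.7% with FGF18 and 25.0% with TGFβ1, against 14.0% in untreated cells. *Nrg4*, a neuregulin that binds ErbB4 and is known as a hormone of fat tissue that acts on the liver, was lower with both stimuli. It was at 7.38 TPM with FGF18 and 9.57 TPM with TGFβ1, against 16.5 TPM in untreated cells, log2 ratios of -1.06 and -0.73. Of 5601 genes of like level, 3.64% had a ratio with FGF18 at least as low. *Nrg4* was the 1 receptor or ligand gene past the 2-fold mark, lower with FGF18, where 5.77% of all genes were that much lower. Those with a mean of at least 1 TPM there were 4 receptors, 5 EGFR ligands and 3 neuregulins, so that 1 gene is near the background. *Nrg2* was at 13.9, 15.3 and 14.7 TPM with FGF18, with TGFβ1 and in untreated cells, and *Nrg3* at 1.07, 1.09 and 0.86 TPM.

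**Figure D3:**
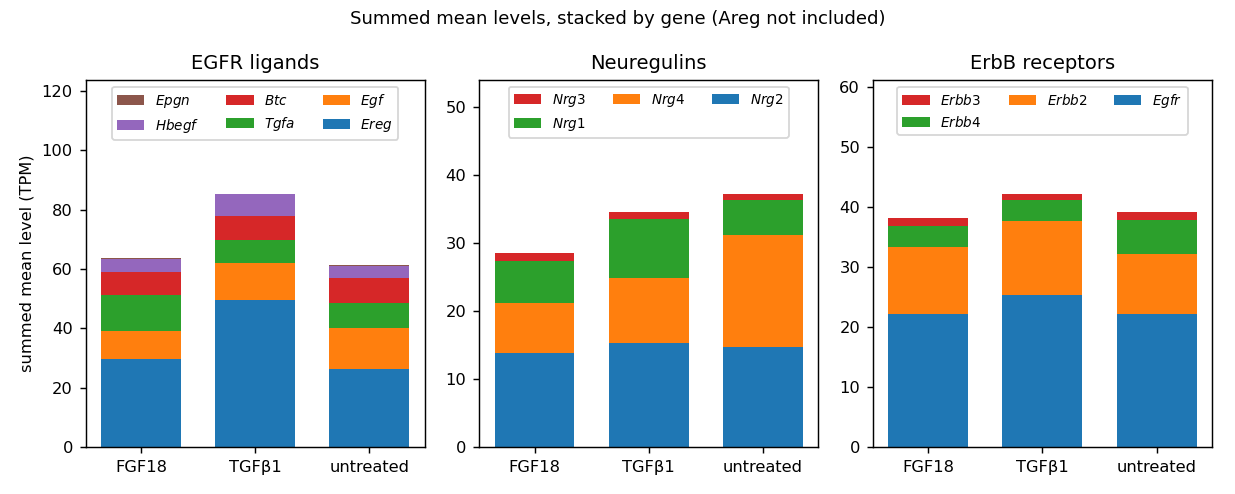
Summed mean levels in TPM of the 6 measured EGFR ligands, the 4 neuregulins and the 4 ErbB receptors in HSCs with FGF18, with TGFβ1 and untreated, stacked by gene. The ligand bar is tallest with TGFβ1, at 85.4 TPM, through *Ereg*, and the receptor bars stand at 38.2, 42.2 and 39.1 TPM.

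Several of these genes share exon bases with another gene in the GENCODE annotation, and strand use in counting is not stated. *Erbb2* shares bases with *Mien1* on the opposite strand, a gene at 119.3, 124.2 and 110.1 TPM with FGF18, with TGFβ1 and in untreated cells. *Nrg4* shares bases with *Fbxo22*, at 46.3, 49.3 and 45.2 TPM, and with *Gm15625*, at 0.39, 0.11 and 0 TPM. *Ereg*, *Tgfa* and *Nrg1* each share some with a predicted gene not analysed here, and *Egf* shares some with 2 genes not analysed here. Reads from such overlaps cannot be told apart. *Egfr* lies on chromosome 11 from 16752203 to 16918158, *Erbb2* on chromosome 11 from 98412470 to 98437716 and *Erbb3* on chromosome 10 from 128567523 to 128589652. *Errfi1* lies on chromosome 4 from 150853919 to 150868892, *Tgfa* on chromosome 6 from 86195223 to 86275719, *Nrg1* on chromosome 8 from 31814551 to 32884029 and *Hbegf* on chromosome 18 from 36504927 to 36515805.

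The genes that release the ligands were described next, from a list of 10. ADAM17, with its carrier proteins iRhom1 and iRhom2, and ADAM10 cut the ligands from the cell surface, and TIMP3 is an inhibitor of ADAM17. *Adam17* was at 37.9 TPM with FGF18 and 41.7 TPM with TGFβ1, against 42.3 TPM in untreated cells, and *Adam10* was at 46.2 and 46.8 TPM, against 51.1 TPM. The 2 TIMP inhibitors had the larger ratios with TGFβ1. *Timp3* was 2.71-fold lower with TGFβ1, at 187.6 TPM against 509.1 TPM in untreated cells, a log2 ratio of -1.44, and was at 455.8 TPM with FGF18. *Timp1*, which inhibits ADAM10 among others, was 8.23-fold higher with TGFβ1, at 260.5 TPM against 31.7 TPM in untreated cells, and was at 59.5 TPM with FGF18. Thus 1 of 10 was higher and 1 lower at the 2-fold mark with TGFβ1, where 4.26% and 4.39% of all genes were, and 0 of 10 were past it with FGF18, where 2.34% were higher and 5.77% lower. *Adam9*, the protease of highest level, was at 183.9 TPM with FGF18 and 94.4 TPM with TGFβ1, against 125.5 TPM in untreated cells. The list's median log2 ratio was 0.29 with FGF18 and -0.05 with TGFβ1.

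Inhibitors of the receptors and genes of their turnover formed the next list, which includes *Errfi1*. Of 17 listed genes, 16 were measured, and the symbol of the remaining one, *Hgs*, stands on more than 1 row. *Sh3kbp1*, an adaptor that couples the ubiquitin ligase CBL to receptor uptake, was at 3.50 TPM with FGF18 and 8.12 TPM with TGFβ1, against 8.57 TPM in untreated cells. It was the 1 gene of 16 past the 2-fold mark, lower with FGF18 at a log2 ratio of -1.09, where 5.77% of all genes were. *Stam* and *Usp8*, which sort receptors in endosomes and were the highest of the list, had log2 ratios of 0.18 and -0.03 with FGF18 and -0.08 and -0.23 with TGFβ1. The list's median log2 ratio was 0.10 with FGF18 and -0.07 with TGFβ1. *Socs5*, a suppressor of EGFR signaling named after its values were seen, was at 20.1 TPM with FGF18 and 14.3 TPM with TGFβ1, against 12.2 TPM in untreated cells. *Errfi1* and *Socs5* were the 2 genes of 16 at least 1.5-fold higher with FGF18, where 6.5% of all genes were, and *Sh3kbp1* and *Ptprj*, a receptor phosphatase at 8.68 TPM with FGF18 and 15.0 TPM in untreated cells, were the 2 at least 1.5-fold lower, where 16.3% were. With TGFβ1, 0 were higher and 0 lower at 1.5-fold, where 10.6% and 10.7% of all genes were.

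Of 22 adaptors and kinases that carry the signal on, 1 was at least 2-fold higher with TGFβ1, 0 were with FGF18 and 0 were lower with either. Over all genes 4.26% were that much higher with TGFβ1, so that 1 of 22 is near the background. The gene was *Grb2*, the adaptor that links the receptors to RAS, at 43.9 TPM with FGF18 and 46.8 TPM with TGFβ1, against 22.7 TPM in untreated cells. Its log2 ratio of 1.01 with TGFβ1 lay just past the mark and that of 0.92 with FGF18 just short of it. *Map2k1*, the kinase that activates ERK, was at 143.8 TPM with FGF18 and 179.8 TPM with TGFβ1, against 99.2 TPM in untreated cells. *Stat3*, a transcription factor downstream of many receptors, was at 120.4 and 145.5 TPM, against 141.0 TPM. The list's medians were 0.05 with FGF18 and 0.08 with TGFβ1.

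Target genes of ERK, which FGF receptors and EGFR both feed, had the highest median with FGF18 of the 7 pathway lists. Of 15 that had a mean of at least 1 TPM there, *Ccnd1*, *Dusp4* and *Dusp5* were at least 2-fold higher and 0 were lower, where 2.34% and 5.77% of all genes were. At 1.5-fold, 8 were higher and 0 lower, where 6.5% and 16.3% of all genes were. The list's median log2 ratio was 0.63 with FGF18, where that of all genes was -0.12. Of the 15 genes, 13 had a log2 ratio above 0 with FGF18 and 2 below, *Fos* at -0.51 and *Egr1* at -0.04. *Dusp5*, a nuclear phosphatase of ERK, was at 13.1 TPM with FGF18 and 9.07 TPM with TGFβ1, against 2.40 TPM in untreated cells. *Dusp4*, a related phosphatase, was at 49.7 and 19.5 TPM, against 23.6 TPM, and *Ccnd1*, which encodes cyclin D1, at 11.8 and 1.07 TPM, against 3.32 TPM. With TGFβ1, *Dusp5* was higher and *Ccnd1* lower at the 2-fold mark, where 4.26% and 4.39% of all genes were. At 1.5-fold, 3 were higher and 2 lower with TGFβ1, where 10.6% and 10.7% of all genes were. The median over 16 genes was 0.10. *Ier3* and *Myc*, the highest of the list, had log2 ratios of 0.53 and 0.13 with FGF18 and 0.12 and 0.08 with TGFβ1. *Errfi1*, itself known as such a target, had a log2 ratio with FGF18 of 0.70, close to the median of this list. With TGFβ1 its log2 ratio was 0.54, where the median was lower. The part of ERK signaling in the level of *Errfi1* was not tested.

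**Figure D4:**
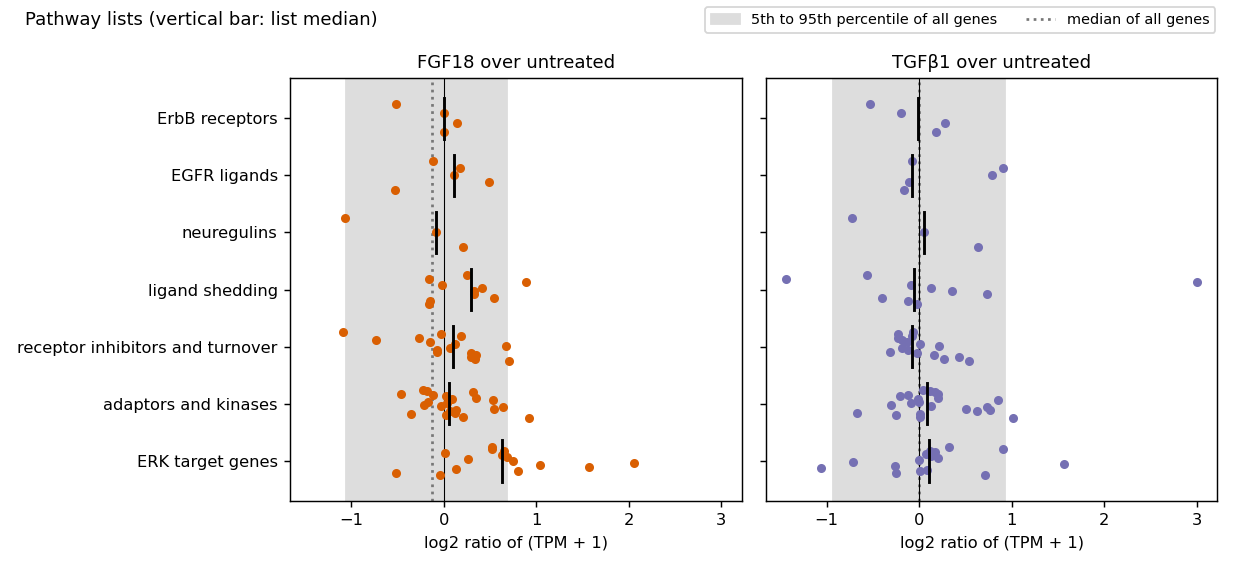
Log2 ratio of (TPM + 1) with FGF18 (left) or TGFβ1 (right) over untreated HSCs for the genes of 7 pathway lists with a mean of at least 1 TPM, each point a gene and each black bar a list median. The grey band holds the central 90% of all genes and the dotted line is their median. The median of the ERK target genes stands at 0.63 with FGF18 and 0.10 with TGFβ1, whereas that of the ErbB receptors lies near 0 with both.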

How the data were processed

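Bulk RNA-seq of HSCs was made by the authors from amplified cDNA (SMART-Seq HT PLUS) with paired-end reads of 150 bases, mapped to GRCm38 and analysed on the platform RaNA-seq. Aligner, counting program and annotation are not given in the sources used. The deposited values used here are TPM levels that the authors averaged over the libraries of a condition, and the columns sum to between 999985 and 999995. Of the values above 1 TPM, 87.2 to 88.3% became whole at 5 decimals when multiplied by 3, and 29.1 to 29.7% did without, so each is a mean of 3 libraries. The columns carry letters. The first column was taken as untreated because each table is titled with untreated first and because it is the same in both tables (0 of 30595 shared symbols differ). The second was taken as the stimulus of the sample that holds the table. The tables also hold the authors' own fold changes, standard errors, statistics and p-values, and none of these was used.

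Symbols on more than 1 row (106 and 104 rows) were left out. Ratios used a pseudocount of 1 TPM, and counts over all genes a mean of at least 1 TPM in the groups compared. With only means, no test, error, replicate check or depth could be computed. Alternatives were a pseudocount of 0.1 or 5 TPM, no filter or a mean of at least 10 TPM, 1.5-fold, and log2 ratios centred on genes of at least 100 TPM. The members and gene lists were chosen with earlier results of these data known. Named are all members, the other receptors and ligands, and of each further pathway list the genes past 2-fold and the 2 of highest level. *Adam17*, *Adam10*, *Socs5*, *Ptprj*, *Fos*, *Egr1* and the cell type markers named were chosen after their values were seen. Genes of like pattern were to be named for members past 2-fold, and there were 0. The counting step was tested on simulated data. Python 3.11.15, numpy 2.4.6, pandas 2.3.3 and matplotlib 3.10.9 were used, with GENCODE release M21.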

Additional observations from a re-analysis of the deposited data

How the results depend on the processing

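A pseudocount is added to both levels and cannot change the sign of a log2 ratio, so only centring could have changed one. With centring, 27 of 27 log2 ratios of the 9 members kept their sign. Those of *Egfr* and *Erbb3* with FGF18 are too close to 0 for a sign to be read. The count of members past 2-fold was 0 under all settings but 1.5-fold. At 2-fold only centring could have changed it, because the largest plain fold of a member was 1.90 and all 9 passed the filter. At 1.5-fold, 1 was higher with FGF18 than untreated and 3 were higher with TGFβ1 than untreated. Between the stimuli, 1 was higher and 2 were lower with FGF18 than with TGFβ1. Counts over all genes depend on these choices, as low genes supply most of them. At a pseudocount of 0.1 TPM, 819 genes were higher and 2051 lower with FGF18, 1437 higher and 1490 lower with TGFβ1, and 813 higher and 1906 lower with FGF18 than with TGFβ1. At 5 TPM the same counts were 119 and 198, 216 and 237, and 136 and 195. With a mean of at least 10 TPM they were 99 and 145, 185 and 183, and 126 and 170. At 1.5-fold they were 1345 and 3377, 2247 and 2268, and 1264 and 2982. The main counts were 484 and 1194, 905 and 933, and 512 and 1068. The median log2 ratio over genes of at least 100 TPM, taken off in centring, was 0.04 with FGF18, 0.03 with TGFβ1 and 0.0075 between them. No paired analysis was possible because only means per condition were used. Leaving out a library was not run for the same reason. Low genes such as *Erbb3* and *Epgn* are the least certain.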
